A study of Rattus norvegicus with 4 samples.

Results

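The urea cycle and glutamine synthesis were followed through 7 genes in the livers of 4 untreated rats. The genes were Cps1, Otc, Ass1, Asl, Arg1, Glud1 and Glul. They were taken by name, whatever their signal, with earlier results of these data known. All probe sets were used whose platform annotation gave 1 symbol equal to one of these names, which yielded 12 of the 15923 probe sets on the array and 7 of 10412 named genes. Cps1, Asl and Glud1 had a pair of probe sets each, Glul had 3, and Otc, Ass1 and Arg1 had 1 each.

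The animals were male Sprague-Dawley rats aged 10 to 12 weeks that received no treatment, had feed and water without restriction, and formed 1 group. Whole liver was taken, so hepatocytes of all zones and the other liver cells were measured as a mixture, and the hour of harvest is not given in the sources used here. Each rat was measured on 1 array, so a difference between rats cannot be told apart from a difference between arrays. Values are log2 signals, in which 1 unit is a doubling, and errors are SDs over n = 4 rats. How brightly a probe set shines depends on its probes, so the levels below are not set against each other as amounts of transcript.

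Ammonia released by amino acid breakdown is toxic, and liver removes it along 2 routes. Hepatocytes near the portal vein turn ammonia into urea. Carbamoyl phosphate synthetase 1 (Cps1) and ornithine transcarbamylase (Otc) act in mitochondria, and argininosuccinate synthetase (Ass1), argininosuccinate lyase (Asl) and arginase 1 (Arg1) act in the cytosol. A narrow rim of hepatocytes around the central vein expresses glutamine synthetase (Glul), which binds the remaining ammonia into glutamine. Glutamate dehydrogenase (Glud1) links the routes by releasing ammonia from glutamate or fixing it.

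All 12 probe sets gave a mean signal above the background level of 8.74, against 23.7% of all probe sets. At gene level 7 of 7 were above it, against 28.9% of all named genes. This level was taken from 13 probe sets for genes of skeletal muscle, pancreas and gut, as the 95th percentile of their means. It was raised by 1 of them, the elastase gene Cela1 at 9.49. Without Cela1 the level was 8.08, and 52.0% of all probe sets lay above it, beside the same 12. Mean signals of the 12 probe sets lay between 9.66 and 12.84, so the lowest exceeded the level by 0.92. All of 9 measured hepatocyte markers were above background too, with albumin (Alb) at 15.06 ± 0.017.

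**Figure D1:**
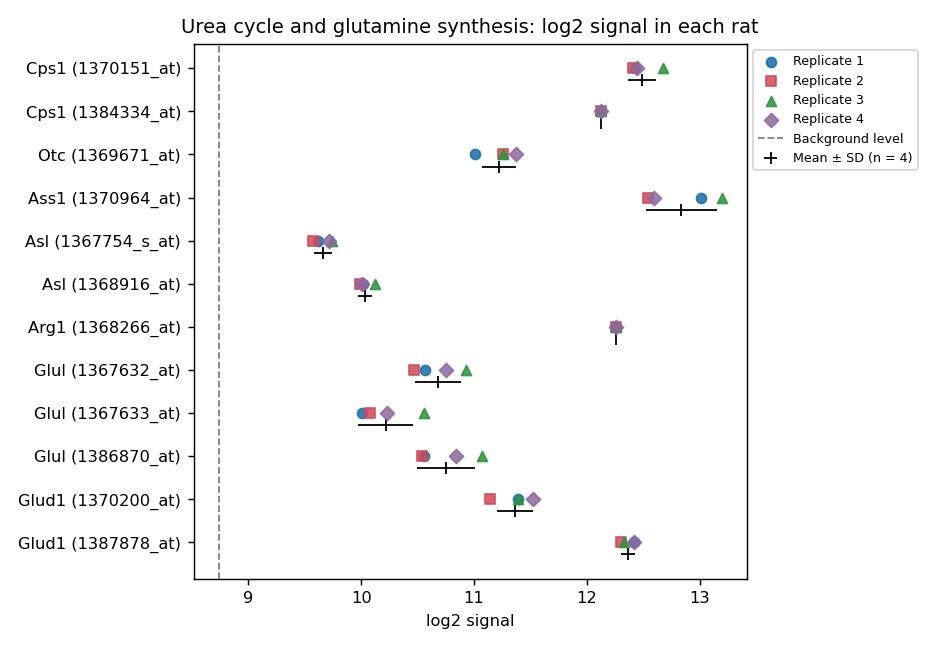
Log2 signal of the 12 probe sets of the 7 genes, with 1 point per rat, the mean and SD over 4 rats drawn under the points, and the background level of 8.74 as a dashed line. Replicate 3 is the rightmost point for Ass1 and for all 3 probe sets of Glul, while the points of Arg1 and of 1 Cps1 probe set lie on top of each other.

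At the entry of the cycle, Cps1, which joins ammonia and bicarbonate and sets the pace of urea synthesis, was measured by 2 probe sets. The probe set 1370151_at had signals of 12.42, 12.41, 12.67 and 12.44 in replicates 1 to 4, a mean of 12.49 ± 0.12. Replicate 3 stood above the other rats, which lay close together. The second probe set, 1384334_at, read 12.13 on every array. Its values were equal to within 0.001 log2 units, as those of 27.6% of all probe sets above background were. Such flat values come with the deposited table and do not measure how alike the animals were. The Cps1 gene lies on chromosome 9, from 76063863 to 76186739 in the rat assembly GRCr8.

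Otc, which makes citrulline from ornithine and carbamoyl phosphate, had signals of 11.005, 11.253, 11.259 and 11.368 in replicates 1 to 4. The mean was 11.22 ± 0.15. Replicate 1 was the low rat, and the other 3 lay within a narrower band, with replicate 4 the highest. Without replicate 1 the SD was 0.065. Otc is X-linked and lies from 15126358 to 15202473 on chromosome X.

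Ass1, which joins citrulline with aspartate, the step that brings in the second nitrogen of urea, had the widest spread of the 12 probe sets. Its signals were 13.02, 12.54, 13.19 and 12.60 in replicates 1 to 4, a mean of 12.84 ± 0.32. The rats fell into a higher pair, replicates 1 and 3, and a lower pair, replicates 2 and 4. Highest and lowest rat differed by 0.65 log2 units, or 1.57-fold. Among the 500 probe sets nearest in mean signal, 93.8% had a smaller SD, and their median SD was 0.069. The gene lies on chromosome 3, from 35144765 to 35194632.

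Asl splits argininosuccinate into arginine and fumarate. The probe set 1368916_at had signals of 10.02, 9.99, 10.12 and 10.01 in replicates 1 to 4, a mean of 10.04 ± 0.061. The other one annotated to Asl, 1367754_s_at, gave 9.62, 9.58, 9.74 and 9.72, a mean of 9.66 ± 0.077. Among the 500 probe sets nearest in mean signal, 47.6% had a smaller SD than 1368916_at and 63% a smaller SD than 1367754_s_at. Replicate 3 was highest and replicate 2 lowest on both Asl probe sets. The annotation ties the second of these to a RefSeq transcript that the gene table assigns to Hnrnpab, an RNA-binding protein gene on chromosome 10, whereas Asl lies on chromosome 12. The probe set of Hnrnpab itself gave 9.85, 9.90, 9.86 and 9.79, with replicate 2 highest and replicate 4 lowest. Deviations of 1367754_s_at from its mean differed from those of the other Asl probe set by a root mean square of 0.046 and from those of Hnrnpab by 0.099. Which transcript this probe set measured was not tested, and the main counts below are also given without it.

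Arg1, which releases urea and returns ornithine to the cycle, read 12.26 on all 4 arrays. Its only probe set was flat in the sense given above, so its spread between rats could not be read.

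Glud1, the mitochondrial enzyme that interconverts glutamate and ammonia, was measured by 2 probe sets annotated to the same sequence. The probe set 1387878_at had signals of 12.42, 12.30, 12.33 and 12.42 in replicates 1 to 4, a mean of 12.37 ± 0.059. The probe set 1370200_at had 11.39, 11.14, 11.39 and 11.52, a mean of 11.36 ± 0.16. Both placed replicate 2 lowest. They did not share the highest rat, which was replicate 1 on the first and replicate 4 on the second.

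Glul, the glutamine synthetase of the pericentral rim, was measured by 3 probe sets annotated to the same sequence. The probe set 1386870_at had signals of 10.56, 10.54, 11.07 and 10.84 in replicates 1 to 4, a mean of 10.75 ± 0.25. The probe set 1367632_at had 10.57, 10.46, 10.93 and 10.75, a mean of 10.68 ± 0.20. The probe set 1367633_at had 10.01, 10.08, 10.56 and 10.23, a mean of 10.22 ± 0.24. All 3 placed replicate 3 highest and replicate 4 next, with replicates 1 and 2 below them. Highest over lowest rat was 1.45-fold, 1.38-fold and 1.46-fold on the 3 probe sets in this order. Their deviations differed from each other by root mean squares of 0.054 to 0.082, which is smaller than each SD. The probe sets share the same 4 arrays and RNA extracts, so their likeness repeats the measurement of the transcript and not the animals. In whole liver, fewer Glul-expressing cells and less Glul RNA per cell cannot be told apart.

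**Figure D2:**
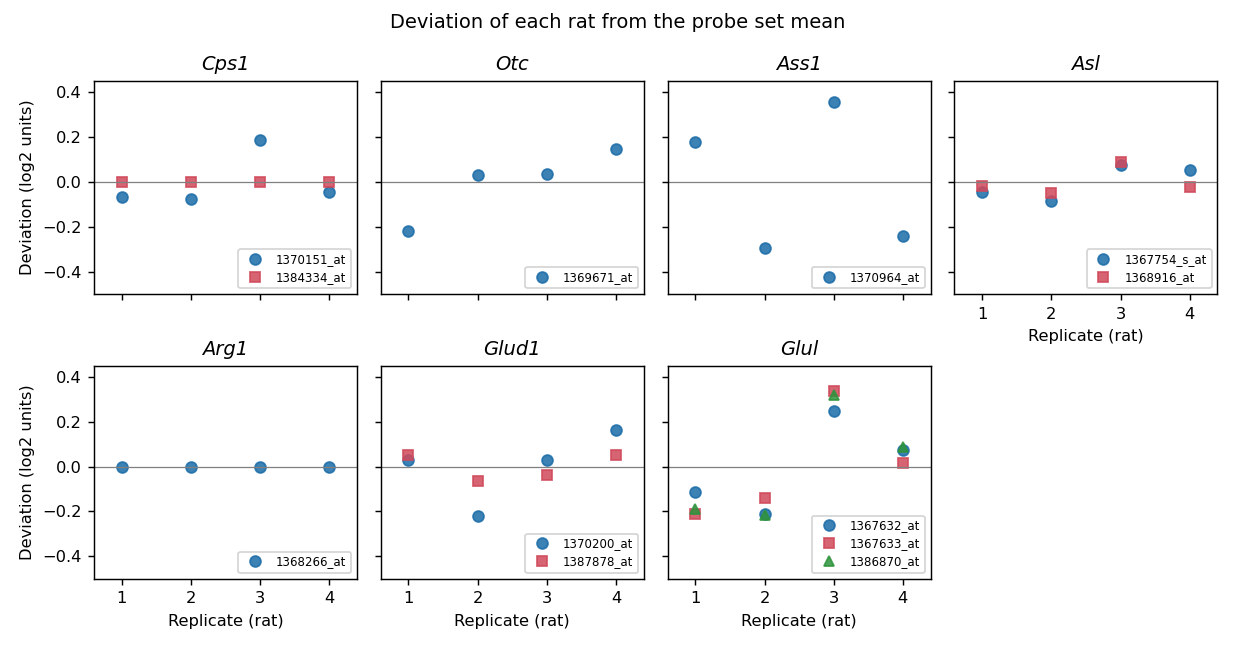
Deviation of each rat from the mean of its probe set, in log2 units, with 1 panel per gene and 1 symbol per probe set. The 3 probe sets of Glul follow each other, Ass1 separates replicates 1 and 3 from 2 and 4, and Otc is lowest in replicate 1.

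A range of at least 0.5 log2 units between the highest and lowest rat was found in 3 of 12 probe sets, against 6.79% of all probe sets above background. The 3 were that of Ass1 and 2 of the 3 of Glul. By brightest probe set, 2 of 7 genes reached this range, against 6.71% of all named genes above background. Without replicate 3 the count of member probe sets was 0, and with a threshold of 0.3 it was 6. The share of all probe sets at these settings is not given here, so neither count can be judged against it. The median SD of the 12 probe sets was 0.14, against 0.045 over all probe sets above background. Leaving out flat probe sets, the medians were 0.16 over 10 probe sets and 0.067 over all. Of the 12 probe sets, 8 had a larger SD than the median of the 500 nearest in signal. Without 1367754_s_at these counts were 3 of 11 for the range and 7 of 11 for the SD. Exceptions were the flat pair, 1368916_at of Asl and 1387878_at of Glud1. No test was made of these spreads, since each rat had 1 array and probe sets of 1 gene repeat each other.

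**Figure D3:**
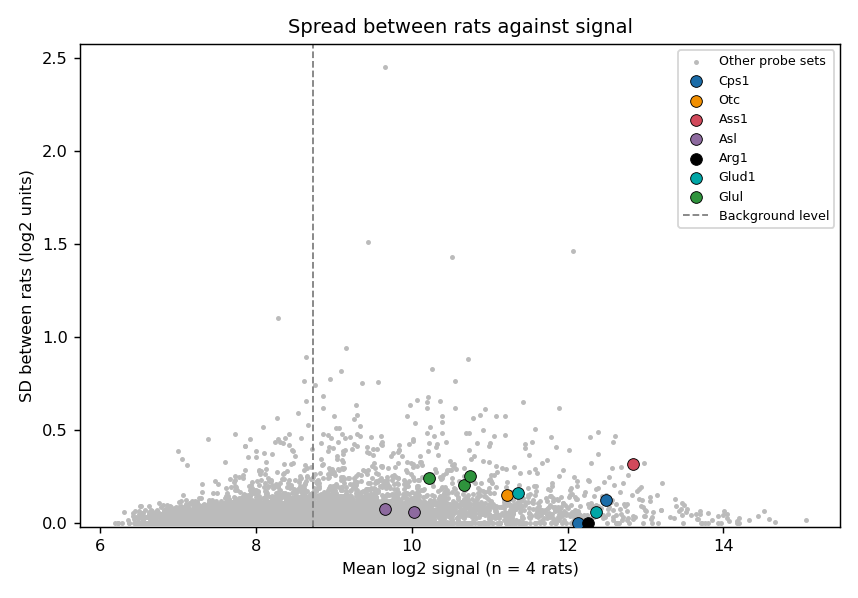
SD between the 4 rats against mean log2 signal for every probe set, with the 12 probe sets of the 7 genes in colour and the background level as a dashed line. Ass1 lies at an SD of 0.32 among bright probe sets, the 3 of Glul between 0.20 and 0.25, and the flat Arg1 and Cps1 probe sets at 0.

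Replicates 3 and 2 held most of the extremes. Of the 10 probe sets that were not flat, 7 were highest in replicate 3, against 35.2% of all probe sets above background that were not flat. Lowest in replicate 2 were 8 of 10, against 31.6%. Without 1367754_s_at the counts were 6 and 7 of 9. With 1 probe set per gene, the brightest, 4 of 6 genes were highest in replicate 3 (Cps1, Ass1, Asl and Glul) and 5 of 6 were lowest in replicate 2. Otc was the gene not lowest there. The median deviation of the 12 probe sets from their own means was 0.08 in replicate 3 and -0.08 in replicate 2, with -0.03 in replicate 1 and 0.03 in replicate 4. Without 1367754_s_at these medians were 0.09, -0.08, -0.018 and 0.014 in the same order. Over the 10 member probe sets that were not flat, the medians were 0.138 in replicate 3 and -0.113 in replicate 2. Over all probe sets above background that were not flat, the medians were 0.018 in replicate 3 and -0.010 in replicate 2, with the same signs and smaller sizes. After each array was shifted to a common median of the probe sets above background, 7 of 10 members were highest in replicate 3 and 7 lowest in replicate 2, or 6 and 6 of 9 without 1367754_s_at. The shares of all probe sets after the shift are not given here, so these counts cannot be judged against them.

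Markers of other cells also differed between these rats. Kupffer cell markers were above background for 6 of 6 measured genes, and the sum of their linear signals was 5343, 6590, 6036 and 5628 in replicates 1 to 4. The sum was highest in replicate 2, the rat in which most members were lowest. Of the 5 Kupffer genes that were not flat, 4 were highest there, against 19.4% of all probe sets above background that were not flat. Among the 4 was the receptor Clec4f with 10.38, 10.82, 10.59 and 10.28, while Cd68 was highest in replicate 3. Stellate cell markers were above background for 2 of 10, and for 8 without Cela1. Their sums, over all 10 genes, were 4676, 5461, 3789 and 5465. The collagen Col3a1 was at 10.80, 11.15, 10.23 and 11.15 in replicates 1 to 4, lowest in replicate 3. Sums of the hepatocyte markers were 152164, 154115, 151985 and 153711, a small difference in a sum that the brightest genes dominate. Of the 9 markers 2 were flat, and Apoa1 had 12.34, 12.98, 13.03 and 12.92 in replicates 1 to 4. Endothelial markers were above background for 2 of 6. Their sums over all 6 were 2673, 2575, 2882 and 2643, highest in replicate 3 and lowest in replicate 2. One of the pair, Eng, had the same extremes with 9.59, 9.39, 9.87 and 9.41, and the other, Kdr, was flat. None of the endothelial markers below background was highest in replicate 3. Bile duct markers were above background for 0 of 4 and blood markers for 1 of 5, or for 2 and 3 without Cela1. The blood marker was Hbb, a haemoglobin chain, with 11.913, 11.270, 11.644 and 11.004, which shares with Ass1 the higher values in replicates 1 and 3. No marker signal was at 0, since all deposited values were at least 5.98. As a sign of RNA quality, the beta-actin probe set at the 3' end was brighter than its partner at the 5' end by 0.85, 0.63, 0.54 and 0.66 in replicates 1 to 4, and that of Gapdh by 0.48, 0.52, 0.54 and 0.54. The part of other cells and of RNA quality in the results was not tested.

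Promoters are shown for Cps1, Ass1 and Glul, 3 of the 4 genes highest in replicate 3, and for Otc, which was not. Asl, the fourth, had a range of 0.14 and is not printed. The windows run from 250 bases before to 50 after an annotated start and come from RefSeq on GRCr8. They are shown in the direction of transcription, with capitals marking any of 4 motifs found on either strand. The first was the TATA box, spelled TATAAA. The next was the CCAAT box. The C/EBP-type site was searched as TTGCNNAA, and the full cyclic AMP response element as TGACGTCA. Glul has a pair of annotated starts and therefore an upstream and a downstream window. The Ass1 window lies inside its locus, which begins at 35144765, so it does not show the sequence before the first base of that locus.
Cps1, chr9:76063613-76063912, plus strand: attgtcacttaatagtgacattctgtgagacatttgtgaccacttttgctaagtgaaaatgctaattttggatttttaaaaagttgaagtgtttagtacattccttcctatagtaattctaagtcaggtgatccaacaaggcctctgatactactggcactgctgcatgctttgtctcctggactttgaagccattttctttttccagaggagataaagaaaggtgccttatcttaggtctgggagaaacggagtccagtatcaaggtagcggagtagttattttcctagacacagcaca
Otc, chrX:15202424-15202723, minus strand: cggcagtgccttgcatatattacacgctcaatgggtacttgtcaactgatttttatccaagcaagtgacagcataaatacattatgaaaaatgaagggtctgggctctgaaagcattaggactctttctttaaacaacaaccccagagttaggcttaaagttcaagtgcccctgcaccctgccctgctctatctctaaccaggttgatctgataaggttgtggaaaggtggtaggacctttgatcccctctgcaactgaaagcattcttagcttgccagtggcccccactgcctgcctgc
Ass1, chr3:35149480-35149779, plus strand: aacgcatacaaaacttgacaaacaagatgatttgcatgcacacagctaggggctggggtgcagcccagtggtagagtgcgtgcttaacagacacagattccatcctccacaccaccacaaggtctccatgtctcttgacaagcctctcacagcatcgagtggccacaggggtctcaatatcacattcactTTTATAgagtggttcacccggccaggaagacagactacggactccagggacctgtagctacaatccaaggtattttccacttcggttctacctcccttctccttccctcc
Glul upstream, chr13:68519250-68519549, plus strand: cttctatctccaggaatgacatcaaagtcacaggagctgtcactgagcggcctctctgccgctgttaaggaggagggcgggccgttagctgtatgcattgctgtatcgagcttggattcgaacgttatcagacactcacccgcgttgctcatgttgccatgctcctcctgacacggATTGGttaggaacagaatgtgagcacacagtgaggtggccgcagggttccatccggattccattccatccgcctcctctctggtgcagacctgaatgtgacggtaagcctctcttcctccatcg
Glul downstream, chr13:68575816-68576115, plus strand: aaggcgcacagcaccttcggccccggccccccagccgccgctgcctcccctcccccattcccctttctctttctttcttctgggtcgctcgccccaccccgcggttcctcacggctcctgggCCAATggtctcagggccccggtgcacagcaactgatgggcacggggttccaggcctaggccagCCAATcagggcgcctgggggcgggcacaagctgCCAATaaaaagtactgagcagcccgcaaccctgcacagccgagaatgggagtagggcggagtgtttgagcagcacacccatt

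The downstream Glul window held 3 CCAAT boxes, which began 128, 65 and 32 bases before the start, and the upstream window held 1 on the opposite strand. A CCAAT box was found in 37.5% of all 33469 promoter windows of this length. Ass1 held a TATA box on the opposite strand, 60 bases before the start used for its window, and 14.2% of all windows held one. Windows of 6 of the 7 genes, all but Arg1, were searched. Over these 6, the C/EBP-type site was found in 0 (10.6% of all windows) and the full cyclic AMP response element in 0 (1.83% of all windows). The short glucocorticoid receptor motif TGTTCT was found in 0 as well (20.7% of all windows), and the GC box GGGCGG in 3, Asl, Glul and Glud1 (33.1% of all windows). The shorter response element TGACG was found in 1, Glul (21.2% of all windows). It lies within the full element where that occurs. No motif was shared by Cps1, Ass1 and Glul in these windows. Distal enhancers, which are known to control Cps1 and Glul, lie outside them. GC content was 39.3% in Cps1, 51.0% in Ass1, 54.7% and 65.7% in the upstream and downstream Glul windows and 46.7% in Otc, beside a median of 51.7% over all windows.

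Around the 7 genes, 5 lists of pathway genes were read, and 30 of their 65 measured genes were above background, against 28.9% of all named genes. Without Cela1 they were 47, against 60.3% of all named genes. Of the 25 that were not flat, 13 were highest in replicate 3, or 52%, against 35.2% of all probe sets above background that were not flat. By list these were 6 of 9 genes of glutamine and glutamate metabolism, 5 of 7 regulators, 1 of 4 genes that supply the cycle, 1 of 2 that use arginine or ornithine and 0 of 3 transport genes. A range of at least 0.5 was reached by 7 of the 30, against 6.71% of all named genes above background.

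Among genes that supply the cycle, 5 of 9 were above background. Highest in replicate 1 were 3 of the 4 that were not flat, against 23.5% of all probe sets above background that were not flat. The ornithine carrier of the mitochondrial membrane, Slc25a15, had signals of 10.86, 10.63, 10.80 and 10.69 in replicates 1 to 4, higher in the same pair of rats as Ass1. Mdh1, the cytosolic malate dehydrogenase, had 11.60, 11.14, 11.48 and 11.27 and separated the same pair. The mitochondrial Mdh2 was at 10.76 ± 0.069. The aspartate-glutamate carrier citrin (Slc25a13) was flat at 10.53. Car5a, the carbonic anhydrase that feeds bicarbonate to Cps1, had 8.60, 8.82, 8.97 and 8.83, so replicate 1 lay below the background level. Arg2, the mitochondrial arginase outside the hepatic cycle, was at 7.58 and below background.

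Genes of glutamine and glutamate metabolism were above background for 9 of 13. Oat, the pericentral ornithine aminotransferase, had 9.76, 10.39, 11.08 and 10.32 in replicates 1 to 4. Replicates 3 and 1 were its extremes, and they differed 2.5-fold. Gpt, the alanine aminotransferase, had 10.08, 9.61, 10.77 and 10.31, highest in replicate 3 and lowest in replicate 2, as 1386870_at of Glul was. Gls2, the periportal glutaminase of liver, had 10.71, 10.68, 10.87 and 10.53 and varied less. Gclm, the modifier subunit of glutamate-cysteine ligase, had 10.31, 9.68, 9.98 and 9.74, highest in replicate 1. The mitochondrial aspartate aminotransferase Got2 was at 11.74 ± 0.049, and Aldh4a1 of proline breakdown was at 11.40 ± 0.068.

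Transport genes were above background for 4 of 16, and for 12 without Cela1. The glutamine carrier Slc38a3 was at 11.09 ± 0.030, and the amino acid carrier Slc38a4 was flat at 11.25. Slc3a2, the heavy chain of several amino acid exchangers, had 10.21, 9.87, 9.74 and 9.93, highest in replicate 1 and lowest in replicate 3. Aqp9, a channel for glycerol and urea, had 10.50, 10.79, 10.81 and 11.05, with the low rat and the high rat of Otc. Among genes that use arginine or ornithine, 4 of 13 were above background, and 9 without Cela1. The 4 were Gamt of creatine synthesis and the antizyme Oaz1, both flat, Ddah1 at 9.93 ± 0.096, and the ornithine decarboxylase Odc1 at 9.02 ± 0.11.

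Regulators were above background for 8 of 14, and 5 of the 7 that were not flat were highest in replicate 3, against the 35.2% given above. The liver factor Cebpb, known to act on urea cycle genes, had 9.67, 9.27, 9.84 and 9.66. The nuclear receptor Hnf4a had 9.75, 9.68, 9.86 and 9.38. Klf15, a factor of amino acid breakdown known to rise in fasting, had 8.99, 9.27, 9.32 and 9.64. It was lowest in replicate 1 and highest in replicate 4, as Otc was, and so was the periportal and fasting-responsive Pck1 with 12.27, 12.44, 12.63 and 12.96. Feed was not restricted, and the part of feeding state in these orders was not tested. Ctnnb1, the beta-catenin that drives the pericentral programme, was flat at 10.99.

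**Figure D4:**
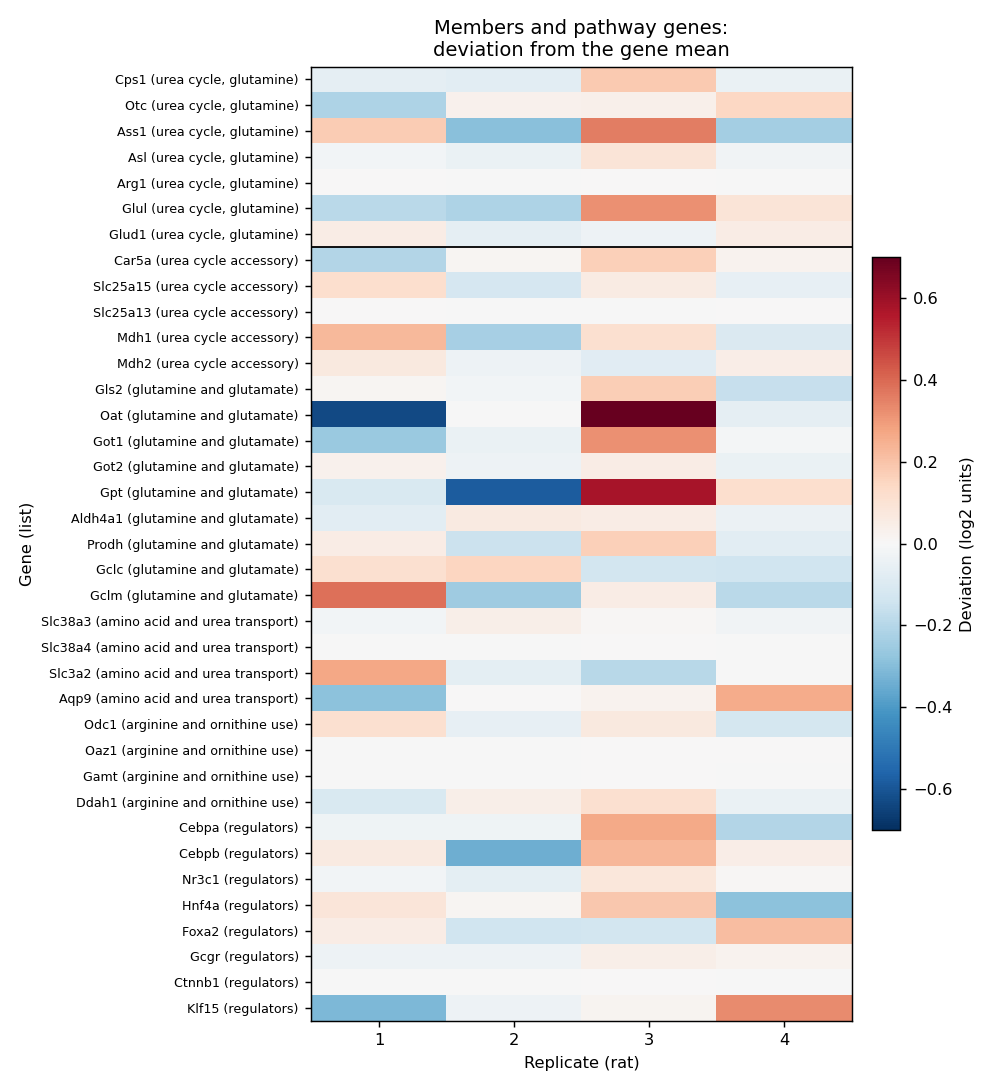
Deviation of each rat from the gene mean, in log2 units, for the 7 genes above the black line and the 30 pathway genes above background below it, each by its brightest probe set. Oat and Gpt carry the strongest colours and are highest in replicate 3, as Ass1 and Glul are.

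Markers of the 2 zones were read beside the genes of each route. Pericentral markers were above background for 5 of 11, and for 8 without Cela1. Of the 5, 4 were lowest in replicate 2, against 31.6% of all probe sets above background that were not flat, among them Cyp1a2 with 12.96, 12.26, 12.82 and 12.72. Oat alone of the 5 was highest in replicate 3, the high rat of Glul. Cyp2e1, another pericentral enzyme, was at 13.40 ± 0.089, Rgn at 11.91 ± 0.085, and Cyp7a1 of bile acid synthesis had 10.32, 9.77, 10.10 and 9.94. Cyp7a1, 1 of the 4 lowest in replicate 2, was not among the pericentral markers named in the written plan. Periportal markers were above background for 6 of 7. They were highest in replicates 2, 3 and 4 for 2 genes each, Pck1 among those of replicate 4. The other of replicate 4 was Alb, which the written plan did not name as periportal. Cyp2f4 had 9.76, 9.81, 9.84 and 9.41, lowest in replicate 4.

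The genes most like each member were sought by the root mean square difference of deviations over 4 rats, among 670 other named genes above background with an SD of at least 0.1. Nearest to Ass1 was Bhmt, the betaine-homocysteine methyltransferase, at 0.020, with signals of 11.22, 10.79, 11.44 and 10.86 in replicates 1 to 4. Thumpd1 followed at 0.042 and Gnmt, the glycine methyltransferase, at 0.066. Glul was nearest to Cyb5b at 0.047, Ang at 0.048 and Grcc10 at 0.051. For 1370151_at of Cps1 the nearest were Zfp598, Tysnd1 and Mpst, at 0.013 to 0.014. For Otc they were Mrpl23 at 0.026, Mettl7a at 0.035 and Dnajc15 at 0.038. With 4 rats many genes share a pattern, so these names describe these arrays.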

How the data were processed

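Liver RNA of 4 rats was measured on 1 Affymetrix array each. The scanner settings name the array RAE230A and the labels' protocol names RAE230-2. The authors deposited log2 signals, with array medians of 8.11 on all 4 arrays. The submitters' processing notes list RMA, GCRMA, affy 1.12.2 and R 2.4.1. Which method gave the values is not given in the sources used here. All arrays were scanned on 1 day with 1 lot, and each had its own fluidics module, so a batch effect cannot be told apart from the rat.

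Probe sets were named from the platform annotation where it gave 1 symbol (12789 of 15923), and 12754 of these matched GRCr8 by gene number. A gene was represented by its brightest probe set. Flat means a range within 0.001. Members and lists were chosen with earlier results of these data known. In each list, the 3 genes with the highest mean and the 3 with the largest SD among those above background were to be named, and for members with an SD of at least 0.1 the 3 nearest genes. Of the cell marker lists, some genes that the rule gives are not named in the text. Slc25a13 and Arg2 were added after their values were seen. With 1 group, no test was made. The steps were tested on simulated data. Python 3.11.15, numpy 2.4.6, pandas 2.3.3 and matplotlib 3.10.9 were used. The number of arrays limits the precision.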

Additional observations from a re-analysis of the deposited data

Results flagged for a closer look

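Of 10 member probe sets that were not flat and 39 named genes of the other lists, 2 had 1 rat far from the other 3, relative to the range of the 4 values. Chance flags about 5% of such sets. For Cps1 (1370151_at) replicate 3, at 12.67, lay above the other rats, at 12.41 to 12.44, and the second Cps1 probe set was flat and shows neither this nor its absence. For the apolipoprotein gene Apoa1, a hepatocyte marker, replicate 1, at 12.34, lay below the other rats, at 12.92 to 13.03.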

How the results depend on the processing

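All 12 member probe sets and all 7 genes stayed above background at the 90th and 98th percentile, without the brightest background gene, with a broader list of brain, testis and eye genes (added after seeing the data), after shifting the arrays and without each replicate, where the counts were 12 and 7 throughout. The number of all probe sets above background ran from 2249 to 8274 over these levels, since the level rests on 13 probe sets, of which Cela1 is the brightest at 9.49. The count of member probe sets with a range of at least 0.5 log2 units was 3. It was 6 with a threshold of 0.3 and 0 with a threshold of 1, and 0 to 3 without each replicate in turn. Leaving out replicate 3 gave the 0. Shares of all probe sets at these settings are not given here, so these counts cannot be judged against them. Median deviations of the members changed by less than their spread under each alternative run, although in replicate 4 the value was at 0 to within 0.001 with 1 probe set per gene. Of 125 values for single probe sets and lists under alternatives, 23 moved. Among them were the SD of 1370151_at of Cps1, 0.016 without replicate 3, and the counts above background of transport genes (11 at the 90th percentile), of genes that use arginine or ornithine (9 there and 7 with the broader list) and of stellate markers (5 with either). No paired analysis was possible because there was 1 group. The flat values of Arg1 limit what can be said of its spread.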
